A study of Mus musculus with 12 samples.

Results

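The genes described here were the drug-metabolising enzymes of phase I and phase II that AML12 mouse hepatocytes expressed in standard medium. Members were chosen by symbol (Cyp1 to Cyp4, Gst, Mgst, Ugt, Sult and Ces genes) and selected on a mean of at least 0.5 FPKM in group A, where FPKM is fragments per kilobase of gene, scaled to the library total. Of 24824 genes listed, 84 carried such a symbol, no pseudogene was among them, and 20 reached the limit. The 20 members were 5 cytochromes P450 of 34 rows, 12 cytosolic glutathione S-transferases of 23 rows, and the 3 microsomal glutathione S-transferases. No Ugt gene of 9, no Sult gene of 6 and no Ces gene of 9 reached it. All groups were of the AML12 line, and no genotypes were compared. Cells were harvested 24 h after the start of treatment, with 3 libraries per group. Group A was kept in standard growth medium. Group B received CuCl2 at 300 μM with the copper ionophore elesclomol (ES) at 40 nM, together called Cu/ES. Group C received the same Cu/ES with taurocholic acid (TCA), a conjugated bile acid, at 1000 μM, and group D received TCA at 1000 μM alone. The study used these groups to ask how copper overload, and a bile acid added to it, change transcription in hepatocytes. AML12 is 1 immortalized line, and the labels do not say whether the 3 libraries of a group came from separate cultures, so p-values measure the spread between these libraries, which may be technical.

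Drug metabolism in the liver runs in 2 phases. Phase I enzymes, chiefly cytochromes P450, add or uncover a reactive group on a foreign or endogenous molecule, using electrons passed on by cytochrome P450 reductase and haem as cofactor. Phase II enzymes then join a water-soluble group to it: glutathione S-transferases attach glutathione, UDP-glucuronosyltransferases (Ugt) glucuronic acid and sulfotransferases (Sult) sulfate, while carboxylesterases (Ces) cleave esters. Glutathione S-transferases also take up products of lipid peroxidation, and glutathione itself binds copper. In hepatocyte lines kept in culture, expression of the liver-enriched P450 families is known to be low.

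The labelled cell type was checked against its markers. Of 13 hepatocyte markers in the table, 3 reached 1 FPKM in group A. Albumin (Alb), Apob, Fgb and Hnf4a were among those at 0 in all group A libraries, and Afp was the highest at 2.56 FPKM. The summed level of the 13 markers was 4.28 to 6.71 FPKM in group A and 47.3 to 51.7 FPKM in group C. Transcripts usually assigned to other cells were abundant in group A, with Vim at 2079.9, Spp1 at 673 and Krt19 at 268 FPKM. The 7 fibroblast markers summed to 2119 to 2339 FPKM in group A, 298 to 354 in group B, 154 to 196 in group C and 1814 to 1936 in group D. Most of each sum was Vim, with means of 2079.9, 330, 168 and 1714 FPKM in groups A, B, C and D. Over the 7 cholangiocyte markers the sums were 920.2 to 1004 FPKM in group A, 1242 to 1406 in group B, 739 to 953 in group C and 743 to 790.4 in group D. Spp1 and Krt19 made up most of them, and the markers went in different directions. From group A to B the mean of Krt19 fell from 268 to 77.3 FPKM, while Spp1 rose from 673 to 1189.6 and Sox9 from 10.6 to 50.9. The 6 endothelial markers summed to 1.04 to 1.24 FPKM in group A and, led by Pecam1, to 10.5 to 15.2 with Cu/ES and 23.9 to 26.9 with Cu/ES and TCA. Of the 6 macrophage markers, Adgre1, Lyz2 and C1qa were at or near 0. The sums were 72.5 to 102 FPKM in group A, 24.6 to 29.1 in group B, 24.1 to 36.9 in group C and 25.5 to 37.03 in group D. Nearly all of each sum was Cd68, with means of 92.2, 27.2, 31.2 and 33.0 FPKM in groups A, B, C and D. These sums, which a few genes of each list made up for the most part, differed between the groups. Their part in the results was not tested.

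Upstream sequences are shown for 3 mu-class genes (Gstm1, Gstm5 and Gstm7) and Mgst1, which were all lower when TCA was added to Cu/ES, and for Gsto2, the member called higher in that comparison. Gstm5 was not called in it, and Mgst3, which was called lower in it, is not printed. The sequences were taken from RefSeq on build GRCm38.p6, which differs from the build of the expression values (GRCm39), and 18 of the 20 members had an entry (25 windows). All 5 Gstm members lie on chromosome 3, in the mu-class gene cluster. Each line holds the 250 bases before the most upstream transcription start in the table, 5′ to 3′ on the gene's own strand. In the order printed, positions are chr3:108017974-108018223 on the minus strand, chr3:107895604-107895853 on the plus strand, chr3:107931818-107932067 on the minus strand, chr6:138140277-138140526 on the plus strand and chr19:47865295-47865544 on the plus strand. Capitals mark matches, on either strand, to the core of the antioxidant response element (TGACNNNGC), the xenobiotic response element (GCGTG), the heat shock element (GAANNTTC) or the metal response element (TGCACNC or TGCGCNC).
Gstm1: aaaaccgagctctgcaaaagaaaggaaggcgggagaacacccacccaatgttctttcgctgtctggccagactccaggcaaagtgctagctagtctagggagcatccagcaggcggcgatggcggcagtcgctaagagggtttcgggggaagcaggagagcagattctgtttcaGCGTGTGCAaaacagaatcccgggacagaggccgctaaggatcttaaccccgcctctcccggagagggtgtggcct
Gstm5: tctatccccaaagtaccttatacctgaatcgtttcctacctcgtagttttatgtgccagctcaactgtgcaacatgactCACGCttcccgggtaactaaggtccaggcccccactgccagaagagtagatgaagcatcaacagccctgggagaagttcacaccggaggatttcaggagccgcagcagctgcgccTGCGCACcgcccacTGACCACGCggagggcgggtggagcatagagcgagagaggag
Gstm7: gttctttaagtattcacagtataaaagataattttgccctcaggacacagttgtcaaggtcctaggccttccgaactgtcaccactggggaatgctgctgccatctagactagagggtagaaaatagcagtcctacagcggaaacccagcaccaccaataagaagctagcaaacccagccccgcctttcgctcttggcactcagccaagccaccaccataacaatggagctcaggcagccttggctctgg
Mgst1: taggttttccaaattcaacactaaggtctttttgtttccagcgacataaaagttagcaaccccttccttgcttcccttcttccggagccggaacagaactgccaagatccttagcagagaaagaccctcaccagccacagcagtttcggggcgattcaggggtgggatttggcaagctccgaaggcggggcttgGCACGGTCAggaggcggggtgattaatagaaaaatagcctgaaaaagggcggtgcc
Gsto2: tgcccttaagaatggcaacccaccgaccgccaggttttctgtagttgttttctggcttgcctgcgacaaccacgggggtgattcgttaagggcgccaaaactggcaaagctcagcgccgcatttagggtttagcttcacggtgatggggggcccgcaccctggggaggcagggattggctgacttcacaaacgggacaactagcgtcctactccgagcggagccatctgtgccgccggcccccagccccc

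In the Gstm1 window the xenobiotic element began 76 bases before the start and shared bases with a metal element on the other strand that began 74 bases before it. The Gstm5 window held an antioxidant element 42 bases before the start, which contained a xenobiotic element on the other strand, and a metal element 56 bases before it. Mgst1 held an antioxidant element 56 bases before the start, and the Gstm7 and Gsto2 windows printed here held none of these letters. The Mgst3 window, not printed, held a xenobiotic element 22 bases before the start. At a second, more downstream start, Gstm7 had an antioxidant element 129 bases before that start and Gsto2 a metal element 61 bases before it. Of the 25 windows of members, some of which overlap, 3 held the antioxidant core (10.2% of 32851 promoters of the same length), 7 the xenobiotic core (28.2%), 0 the heat shock element (6.69%), 2 the metal core TGCACNC (10.4%) and 5 the metal core TGCGCNC (12.5%). These matches are letters in a window and were not tested as binding sites.

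Library totals, worked out from the steps between low FPKM values, were 29112342 to 39772346 reads. The number of genes at 1 FPKM or more was 10805 to 10893 in group A, 10570 to 10664 in group D, but 8458 to 8576 with Cu/ES and 8490 to 8711 with Cu/ES and TCA. FPKM is a share of each library, and in bulk RNA fewer cells and less RNA per cell cannot be told apart. Differences were tested with limma on log2(FPKM + 1) for 10615 genes with a mean of at least 1 FPKM, and a gene was called at a Benjamini-Hochberg adjusted p under 0.05 with an absolute log2 fold change above 1. On this scale the fold of low genes is understated. The median of all genes tested was shifted by -1.10 in group B vs. A and by -1.13 in group C vs. D, so a member near those values moved with the bulk of genes. In group C vs. B the median was -0.030 and in group D vs. A -0.013. Scaling each library by median ratios removed the shift, and values after it are given beside the results whose call it changed. Of the 20 members 19 were tested, and Gstp2 fell under the filter. Group A chose the members, so comparisons that involve its level are descriptions. The fold changes of group C vs. D and group C vs. B contain no group A value, although all 12 libraries shared 1 estimate of the spread. Fitted on only the groups compared, both gave the same counts of called members.

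In group A the pi, omega and mu classes of glutathione S-transferase stood highest, by fragments per length. Gstp1, the pi-class enzyme found in many cell types, had 208, 226 and 232 FPKM in the 3 libraries. Gsto1, an omega-class enzyme with thiol transferase and dehydroascorbate reductase activity, had 165, 172 and 176 FPKM. Gstm1 and Gstm2, mu-class enzymes that conjugate electrophiles, averaged 109.7 ± 10.96 (SD, n = 3) and 92.6 ± 5.05 (SD, n = 3) FPKM. Libraries of Gstp1 and Gsto1 did not overlap in group A, and those of Gstm1 lay above those of Gstm2. The remaining members were far lower. Gstm5 averaged 25.3 ± 2.49 (SD, n = 3), Gstm7 15.6 ± 1.2 (SD, n = 3), and the microsomal enzymes Mgst1, Mgst3 and Mgst2 19.1, 18.9 and 16.7 FPKM, with overlapping libraries. Gstz1, Gstt3, Gsto2, Gstm4, Gsta4 and Gstp2 averaged between 0.639 and 6.25 FPKM.

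The P450 members were fatty acid hydroxylases of the Cyp4 family and Cyp2s1. Cyp4f16 had 34.4, 30.5 and 36.3 FPKM and Cyp4f13 had 17.5, 18.2 and 17.3 FPKM in group A, with Cyp4f17, Cyp4v3 and Cyp2s1 at means of 5.99, 5.09 and 2.49 FPKM. None of the 3 Cyp1 genes and none of the 4 Cyp3 genes listed reached the limit, against 1 of 16 Cyp2 and 4 of 11 Cyp4 genes. Gstp2 (0.639 FPKM) and Gsta4 (1.06 FPKM) lay just inside the limit, and Sult2b1 (0.420 FPKM) and Gsta2 (0.220 FPKM) just outside it. A limit of 0.25 FPKM would have given 21 members and a limit of 1 FPKM 19. Symbols of one class share sequence (Gstm genes, Gsta genes, Gstp1 with Gstp2), so reads could have been split or dropped between them in counting, and the level of each such gene is uncertain to that extent.

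**Figure D1:**
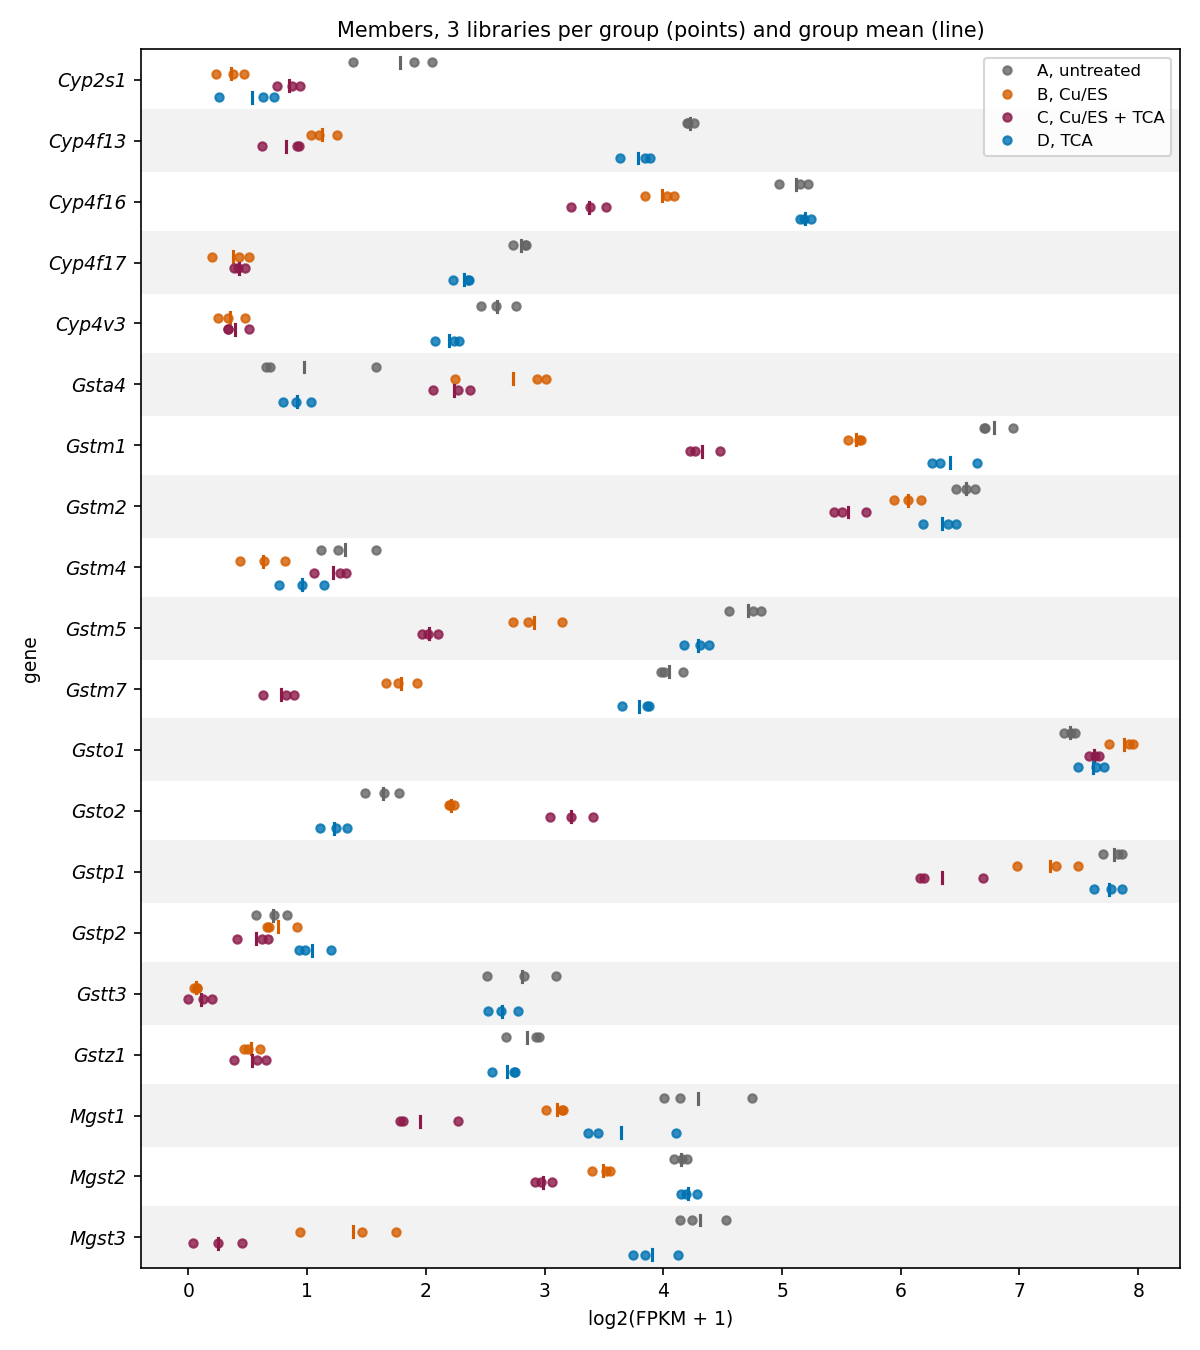
Level of each of the 20 members as log2(FPKM + 1) in the 3 libraries (points) of each group, with the group mean as a vertical line. Groups B and C both lie left of groups A and D for most members, while Gsta4 and Gsto2 lie to the right in groups B and C. For 11 of the 20 members every group C library lies left of every group B library.

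The summed FPKM of the 20 members was 773 ± 38.6 (SD, n = 3) in group A, 559 ± 42.1 (SD, n = 3) in group B, 384 ± 28.6 (SD, n = 3) in group C and 723 ± 13.4 (SD, n = 3) in group D. Group C libraries lay below those of every other group. The 5 Gstm members together went from 198 ± 20.9 (SD, n = 3) FPKM in group D to 70.3 ± 6.88 (SD, n = 3) in group C, and the 4 Cyp4 members from 56.02 ± 2.32 (SD, n = 3) to 10.9 ± 1.13 (SD, n = 3). The omega pair summed to 197 ± 14.8 (SD, n = 3) FPKM in group D and 205 ± 4.46 (SD, n = 3) in group C, and so made up a greater part of the members' total in group C than in group D.

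The Cu/ES effect in the presence of TCA (group C vs. D) was compared without group A values. In group D vs. A only 0.151% of all genes were called lower and 0.0659% higher, so the rule also favoured genes expressed in group D. Family genes low in groups A and D and higher in group C, such as Gsta1 and Cyp2u1, were left out. The counts of members are to be read with that limit. In that comparison 13 of the 19 members tested were called lower, where 53.3% of all genes were, and 2 were called higher (Gsta4 and Gsto2), where 11.2% of all genes were. The members' median log2 fold change was -1.80, beside -1.13 over all genes and -1.18 over the 10315 genes tested with at least 0.5 FPKM in group A. After median-ratio scaling 8 members were called lower against 25% of all genes, and 3 higher (Gsta4, Gsto2 and Gsto1) against 27.8%. The 8 were Cyp4f13, Cyp4f17, Cyp4v3, Gstm5, Gstm7, Gstt3, Gstz1 and Mgst3. Of these, Cyp4f17, Cyp4v3, Gstt3 and Gstz1 averaged under 1 FPKM in groups B and C. They reached the filter only through groups A and D, where they were high. So did Cyp4f13 and Mgst3, which averaged 0.776 and 0.194 FPKM in group C and 1.19 and 1.68 FPKM in group B. Gsta4, at 1.06 and 0.887 FPKM in groups A and D, reached it only through groups B and C, where it was high. The calls of all these members in group C vs. D are therefore descriptions. Of the 19 members tested, 14 had every group C library below every group D library, beside 71.6% of all genes, and 3 (Gsto2, Gsta4 and Cyp2s1) had every one above, beside 20.4%, so these shares were near those of all genes.

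**Figure D2:**
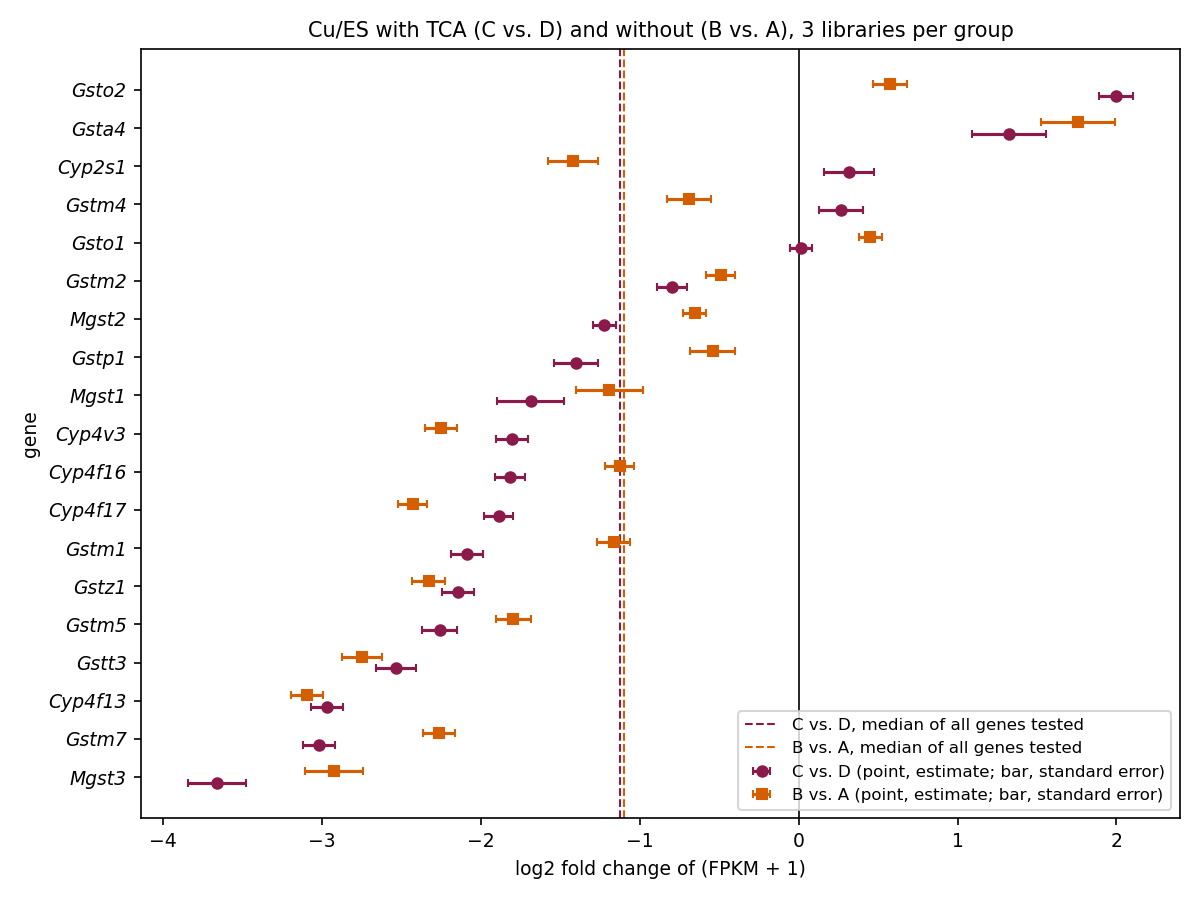
Log2 fold change of (FPKM + 1) with its standard error for the 19 members tested, in group C vs. D (circles) and group B vs. A (squares), ordered by the former. Dashed lines give the median of all genes tested (-1.13 and -1.10); Mgst3, Gstm7 and Cyp4f13 lie farthest left in group C vs. D, and Gsta4 and Gsto2 lie right of 0 in both comparisons.

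Among the P450s, all 4 Cyp4 members fell. Cyp4f13, which like its Cyp4f relatives hydroxylates the end of fatty acid chains, had 13.4, 11.4 and 13.8 FPKM in group D and 0.908, 0.539 and 0.881 in group C. All libraries of group C lay far below those of group D, a log2 fold change of -2.97 ± 0.10 SE (limma adjusted p = 1.81e-12). Cyp4f17 went from 4.16, 3.69 and 4.12 to 0.308, 0.394 and 0.337 FPKM (log2 fold change -1.89 ± 0.091 SE; limma adjusted p = 5.55e-11). Cyp4v3, the mouse counterpart of a fatty acid hydroxylase of the human retina, was named after its values were seen and went from 3.59 ± 0.336 (SD, n = 3) to 0.314 ± 0.0961 (SD, n = 3) FPKM (log2 fold change -1.8 ± 0.10 SE; limma adjusted p = 2.95e-10). These low levels stood on few reads in group C (28 to 43 for Cyp4f17 and 22 to 43 for Cyp4v3). Cyp4f16 had the highest level of the P450 members, with 36.8, 34.5 and 35.4 FPKM in group D and 10.5, 8.33 and 9.43 in group C. Its log2 fold change was -1.82 ± 0.092 SE (limma adjusted p = 9.5e-11), and -0.51 after median-ratio scaling, short of the fold threshold.

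Cyp2s1, a P450 of epithelia outside the liver that is known as a target of the aryl hydrocarbon receptor, did not follow the Cyp4 genes. Group D libraries had 0.546, 0.193 and 0.646 FPKM and group C libraries 0.917, 0.830 and 0.673. Every group C library was above every group D library, but the log2 fold change of 0.32 ± 0.16 SE did not pass (limma adjusted p = 0.0697), with a 95% interval of -0.022 to 0.66. Whether it passed the adjusted p depended on the setting. It did so with only the groups compared (limma adjusted p = 0.0376), with a pseudocount of 0.1 (0.0447), without replicate 2 of group A (0.0209) or replicate 3 of group D (0.0386), and after median-ratio scaling (log2 fold change 0.85), over a range of 2.39e-06 to 0.297 in all alternatives.

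The mu-class genes split. Gstm7 fell furthest, from 13.7, 13.6 and 11.6 FPKM in group D to 0.542, 0.772 and 0.854 in group C. Those levels did not overlap, and the log2 fold change was -3.02 ± 0.10 SE (limma adjusted p = 1.53e-12). Gstm5 went from 19.9, 18.8 and 17.00 to 3.06, 3.3 and 2.9 FPKM (log2 fold change -2.26 ± 0.11 SE; limma adjusted p = 5.22e-11). Gstm1, the main mu-class enzyme of mouse liver, went from 79.3, 98.7 and 75.9 to 17.7, 21.3 and 18.2 FPKM. Its libraries did not overlap either, with a log2 fold change of -2.09 ± 0.10 SE (limma adjusted p = 7.15e-11) that shrank to -0.74 after median-ratio scaling. Gstm2 lost less than the median gene. It had 83.4, 87.2 and 71.7 FPKM in group D and 44.5, 51.3 and 42.3 in group C, and its log2 fold change of -0.80 ± 0.092 SE (limma adjusted p = 1.05e-06) turned to 0.57 after median-ratio scaling. Gstm4 was low throughout, with 0.697, 0.941 and 1.21 FPKM in group D and 1.51, 1.42 and 1.08 in group C, and did not pass (log2 fold change 0.26 ± 0.14 SE; limma adjusted p = 0.0839; 95% interval -0.035 to 0.56). Without replicate 3 of group C (limma adjusted p = 0.0481) or of group D (0.0361), and after both median-ratio and quantile scaling, Gstm4 did pass. It too was named after its values were seen.

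In the pi class, Gstp1 went from 217, 197 and 232 FPKM in group D to 70.8, 102 and 72.3 in group C. Replicate 2 was the highest of group C, and the groups did not overlap (log2 fold change -1.4 ± 0.14 SE; limma adjusted p = 2.25e-07). Scaled by median ratios, its change was -0.024, close to that of the median gene. Gstp2, not tested, had 1.3, 0.978 and 0.908 FPKM in group D and 0.594, 0.533 and 0.329 in group C, the latter from 8 to 14 reads.

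The omega pair did not follow the mu class. Gsto2, which like Gsto1 reduces dehydroascorbate, rose from 1.16, 1.52 and 1.37 FPKM in group D to 8.34, 7.25 and 9.58 in group C. Each group C library was over 7 FPKM and each group D library under 2 FPKM, a log2 fold change of 2.0 ± 0.11 SE (limma adjusted p = 1.53e-10). Gsto1 had 208, 179 and 199 FPKM in group D and 198, 202 and 191 in group C. Those libraries overlapped, and the log2 fold change was 0.013 ± 0.071 SE with a 95% interval of -0.14 to 0.17 (limma adjusted p = 0.859). After median-ratio scaling its log2 fold change was 1.4, and it was then called higher.

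Gsta4, the alpha-class enzyme that conjugates reactive aldehydes of lipid peroxidation, was the other member that rose. It had 1.05, 0.873 and 0.739 FPKM in group D and 3.84, 4.19 and 3.17 in group C, with no overlap (log2 fold change 1.32 ± 0.23 SE; limma adjusted p = 7.95e-05). Gstt3, of the theta class, was at or near 0 with Cu/ES and TCA. Group D libraries had 5.84, 5.19 and 4.74 FPKM, from 355 to 440 reads, and group C libraries 0, 0.0907 and 0.147, from 0 to 9 reads (log2 fold change -2.53 ± 0.12 SE; limma adjusted p = 6.71e-11). Gstz1, which as maleylacetoacetate isomerase serves the breakdown of tyrosine, went from 5.68, 5.74 and 4.88 to 0.489, 0.308 and 0.572 FPKM (log2 fold change -2.14 ± 0.10 SE; limma adjusted p = 5.04e-11). Both genes lay below the median shift by more than 1 log2 unit.

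The 3 microsomal enzymes, membrane proteins that conjugate or reduce lipid peroxides and serve leukotriene synthesis, all fell but to unequal degrees. Mgst3 had 13.4, 16.4 and 12.4 FPKM in group D and 0.188, 0.366 and 0.0282 in group C, the latter from 1 to 14 reads. Its log2 fold change of -3.66 ± 0.18 SE (limma adjusted p = 7.46e-11) was the lowest of the 19 members on the log2(FPKM + 1) scale. Mgst1 had 9.92, 16.2 and 9.34 FPKM in group D and 2.49, 3.83 and 2.44 in group C, and replicate 2 was the highest library in both. The log2 fold change was -1.69 ± 0.21 SE (limma adjusted p = 2.34e-06), and -0.52 after median-ratio scaling, short of the fold threshold. Mgst2 went from 18.5, 16.7 and 17.2 to 6.58, 6.84 and 7.36 FPKM (log2 fold change -1.22 ± 0.073 SE; limma adjusted p = 5.86e-10), which was close to the median shift and became 0.048 after median-ratio scaling.

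Cu/ES without TCA (group B vs. A) is given as a description, since group A chose the members. Of the 19 members tested, 12 were past both thresholds downward beside 53% of all genes, and 1 (Gsta4) upward beside 10.1%. After median-ratio scaling 7 were past them downward beside 24.5%, and 3 upward beside 26.9%. The members' median was -1.19 beside -1.10 over all genes. Mean levels went from 17.7 to 1.19 FPKM for Cyp4f13, from 18.9 to 1.68 for Mgst3, from 15.6 to 2.46 for Gstm7 and from 6.12 to 0.0448 for Gstt3. Levels of Gsta4 were 0.572, 1.98 and 0.614 FPKM without and 7.08, 3.75 and 6.65 FPKM with Cu/ES, and its replicate 2 stood apart from the other two libraries of group A. Gsto1 libraries of group B (242, 215 and 247 FPKM) all lay above those of group A. For Cyp4f16, Gstm1, Gstm2, Gstp1, Mgst1 and Mgst2 the sign depended on the scaling, being negative as deposited and positive after median-ratio scaling. The scaled values of Cyp4f16 (0.16), Gstm1 (0.16) and Mgst1 (0.043) were near 0 and did not pass the adjusted p. Gstm4 and Mgst2 had positive values after quantile normalization. For Mgst1 the value of -1.19 became -0.97 without replicate 2 of group A.

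With TCA added to Cu/ES (group C vs. B), several conjugating enzymes were lower still than with Cu/ES alone. Of the 19 members tested, 4 were called lower (Gstm1, Gstm7, Mgst1 and Mgst3), where 1.16% of all genes were, and 1 was called higher (Gsto2), where 1.13% were. After median-ratio scaling the counts were again 4, against 1.24%, and 1, against 1.8%. The members' median log2 fold change was -0.50 beside -0.030 over all genes, and 12 of 19 lay below 0. Of the 19 members tested, 11 had every group C library below every group B library, beside 27.2% of all genes, and 3 had every one above, beside 22%. Family genes low in group A and higher in group C than in group B, such as Cyp2u1, were left out here too, and the counts are to be read with that limit. The comparison of group C vs. B shares the group C libraries with group C vs. D.

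Gstm1 had 49.9, 49.01 and 45.9 FPKM in group B and 17.7, 21.3 and 18.2 in group C. No library of group C came near those of group B, and the log2 fold change was -1.3 ± 0.10 SE (limma adjusted p = 1.42e-06). Gstm7 went from 2.8, 2.4 and 2.18 FPKM in group B to the group C levels given above (log2 fold change -1.01 ± 0.10 SE; limma adjusted p = 6.8e-06). With 24 to 42 reads a library in group C, it lost the fold threshold without replicate 1 of group B (-0.94) or of group C (-0.93). Gstm5 (log2 fold change -0.88 ± 0.11 SE; limma adjusted p = 2.97e-05) and Gstm2 (log2 fold change -0.51 ± 0.092 SE; limma adjusted p = 0.000574) fell by less than the fold threshold. Gstm4 went the other way, from 0.551, 0.755 and 0.349 FPKM in group B to 1.51, 1.42 and 1.08 in group C (log2 fold change 0.59 ± 0.14 SE; limma adjusted p = 0.00342).

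Mgst3 had the lowest ratio of group C to group B among the members, with 0.920, 2.36 and 1.75 FPKM in group B and 0.188, 0.366 and 0.0282 in group C. The 3 libraries of each group varied widely among themselves, and the groups still did not overlap (log2 fold change -1.14 ± 0.18 SE; limma adjusted p = 0.000221). Without replicate 2 of group B the value was -0.95. Mgst1 had 7.83, 7.91 and 7.07 FPKM in group B against the group C levels above (log2 fold change -1.15 ± 0.21 SE; limma adjusted p = 0.000587), and Mgst2 10.7, 9.58 and 10.5 (log2 fold change -0.51 ± 0.073 SE; limma adjusted p = 9.96e-05). Gstp1 averaged 154 ± 26.95 (SD, n = 3) FPKM in group B and 81.8 ± 17.8 (SD, n = 3) in group C, a log2 fold change of -0.91 ± 0.14 SE (limma adjusted p = 0.000175) that crossed the fold threshold without replicate 2 of group B (-1.05) or of group C (-1.08).

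Gsto2 had 3.58, 3.6 and 3.72 FPKM in group B and 8.34, 7.25 and 9.58 in group C. Group B libraries were tight and all lay below group C (log2 fold change 1.01 ± 0.11 SE; limma adjusted p = 8.18e-06), and without replicate 3 of group C the value was 0.92, so that no member was then called higher. Cyp2s1 rose from 0.301, 0.381 and 0.173 to 0.917, 0.830 and 0.673 FPKM (log2 fold change 0.49 ± 0.16 SE; limma adjusted p = 0.0213), the former from 14 to 32 reads. Cyp2s1 no longer passed without replicate 3 of group B (limma adjusted p = 0.0798) or replicate 1 of group C (0.0689), with no filter (0.0799) or with limma-voom unfiltered (0.0769). Cyp4f16 fell by less than the fold threshold (log2 fold change -0.61 ± 0.092 SE; limma adjusted p = 0.000139). Gsto1 passed as well (log2 fold change -0.25 ± 0.071 SE; limma adjusted p = 0.0119), but not without replicate 3 of group B (0.0543) or after median-ratio scaling (0.069). Cyp4f13 (log2 fold change -0.30 ± 0.10 SE; limma adjusted p = 0.0272) did not pass without replicate 1 of group B (0.106), without replicate 2 of group C (0.089) or with limma-voom (0.127). Cyp4f17, Cyp4v3, Gstt3 and Gstz1 were already under 1 FPKM in every library of group B and did not pass. Gsta4 did not pass either (log2 fold change -0.50 ± 0.23 SE; limma adjusted p = 0.099; 95% interval -0.995 to 0.0016), but did without replicate 2 of group A (0.0301) or of group B (0.0186).

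TCA alone (group D vs. A) is also given as a description, since group A chose the members. A single member of the 19, Cyp2s1, was past both thresholds downward, beside 0.151% of all genes, and 0 were upward, beside 0.0659%. Beside the 0 of limma, limma-voom on recovered reads also gave 0, and 1 member (Gsto1) was higher at an unadjusted p under 0.05. The members' median was -0.36 beside -0.013 over all genes, and 16 of the 19 lay below 0. Besides Cyp2s1, the members at a limma adjusted p under 0.05 were all lower, but short of the fold threshold. They were Mgst1 (log2 fold change -0.65), Cyp4f17 (-0.49), Cyp4f13 (-0.43), Gstm5 (-0.42), Gsto2 (-0.41), Cyp4v3 (-0.41) and Gstm1 (-0.37). Cyp2s1 libraries had 3.14, 1.62 and 2.73 FPKM in standard medium against 0.546, 0.193 and 0.646 with TCA, with no overlap (log2 fold change -1.24 ± 0.16 SE). It reached the filter of 1 FPKM only through group A, where it was highest. After median-ratio scaling its value was -0.96, and after quantile normalization -0.80. Gsto1 averaged 171 ± 5.78 (SD, n = 3) and 196 ± 15.00 (SD, n = 3) FPKM (log2 fold change 0.19 ± 0.071 SE), and Mgst2 16.7 ± 0.683 (SD, n = 3) and 17.5 ± 0.930 (SD, n = 3) (log2 fold change 0.062 ± 0.073 SE).

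The difference between the effects of TCA with and without Cu/ES (the interaction, group C vs. B minus group D vs. A) also contains the group A level, so its values are a description. Of the 19 members, 2 were past both thresholds (Cyp2s1 and Gsto2), beside 3.49% of all genes. Without replicate 2 of group B, 4 members were past them (Cyp2s1, Gsto2, Gstm4 and Gstp1), and without replicate 2 of group C also 4 (Cyp2s1, Gsto2, Gstm1 and Gstp1). Cyp2s1, at -1.24 with TCA alone and 0.49 with Cu/ES, had a log2 difference of 1.74 ± 0.22 SE. Gsto2 went from 2.13, 1.8 and 2.43 FPKM in group A to 1.16, 1.52 and 1.37 in group D, and from group B to group C it rose, which gave a log2 difference of 1.42 ± 0.15 SE. Gstm1, at -0.37 with TCA alone and -1.3 with Cu/ES, had a log2 difference of -0.92 ± 0.15 SE, and Mgst1 one of -0.50 ± 0.30 SE.

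**Figure D3:**
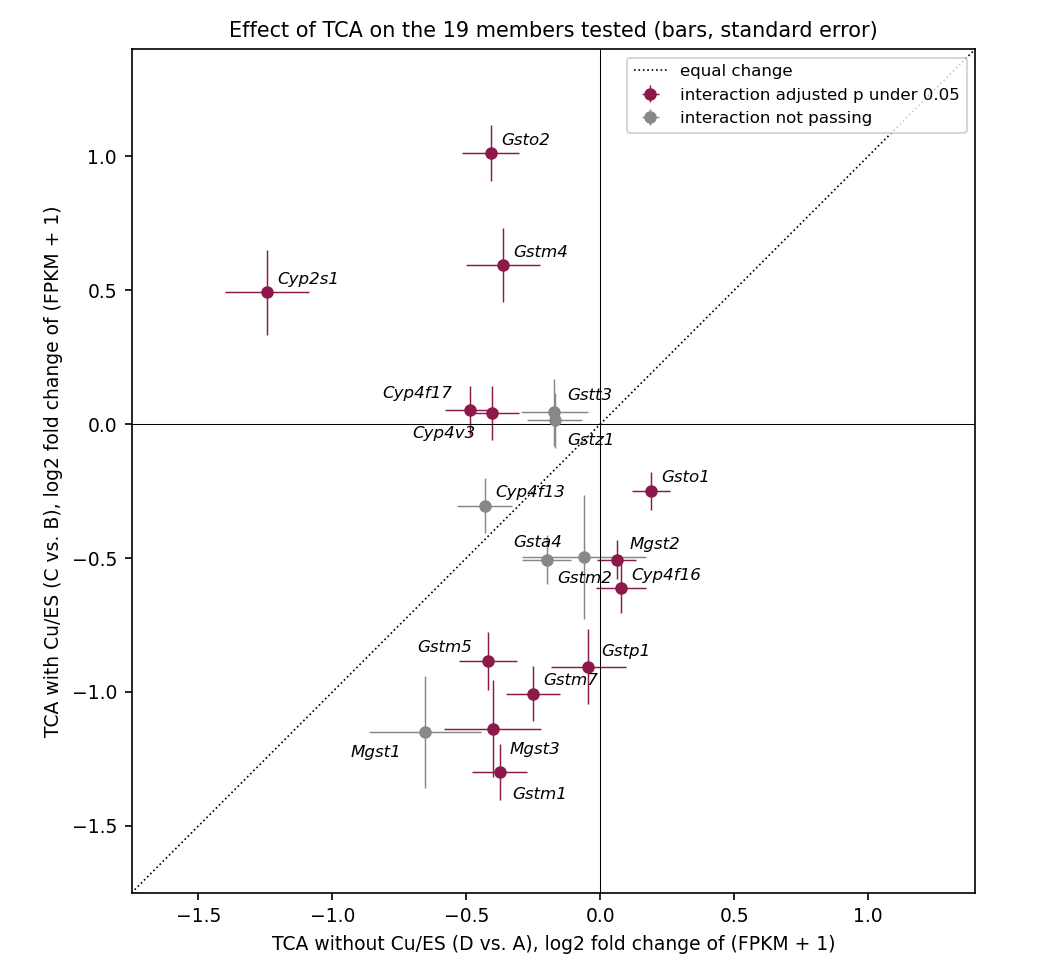
Log2 fold change of (FPKM + 1) with TCA alone (group D vs. A, horizontal axis) and with TCA added to Cu/ES (group C vs. B, vertical axis) for the 19 members tested, with standard errors; the dotted line marks equal change. Cyp2s1 and Gsto2 lie far above the line, and Gstm1, Gstm7, Gstp1 and Mgst3 below it.

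Genes of these families that stayed under the limit in group A were also examined, since several were detected mainly with Cu/ES. Of 64 such genes, 59 were under 0.5 FPKM in the mean of every group and 5 reached it in group B, C or D. Those 5 were picked on these values, which are therefore given without a test. Gsta1, an alpha-class enzyme, had 0.0303, 0.179 and 0.386 FPKM in group A, against 21.9, 16.5 and 26.5 with Cu/ES. In group C it had 22.3, 28.5 and 21.5 FPKM and in group D 0.409, 0.118 and 1.44, so both Cu/ES groups lay above 16 FPKM and all other libraries under 2 FPKM. Gsta2 followed the same order, with means of 0.220, 5.66, 7.32 and 0.795 FPKM in groups A, B, C and D, and Gsta5 had no read in group A and means of 0.643 and 1.5 FPKM in groups B and C. In the alpha class these genes and Gsta4 thus had higher means in groups B and C than in groups A and D, while Gsta3 stayed under 0.5 FPKM in every group. Gsta1, Gsta2 and Gsta5 are closely related in sequence, so how their reads were divided is uncertain.

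Cyp2u1, a P450 that hydroxylates long-chain fatty acids, had the same order of groups, higher in B and C than in A and D. It had 0.0112, 0.176 and 0.154 FPKM in group A, 4.9, 5.13 and 4.93 in group B, 12.7, 9.61 and 11.9 in group C and 0.0108, 0 and 0.0325 in group D. Group C libraries all exceeded those of group B, which exceeded all others, and the mean of 11.4 FPKM in group C stood beside 9.41 FPKM for Cyp4f16, with overlapping libraries. The fifth gene, Sult2b1, a sulfotransferase of cholesterol, had means of 0.420, 0.566, 0.478 and 0.391 FPKM in groups A, B, C and D, which overlapped.

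**Figure D4:**
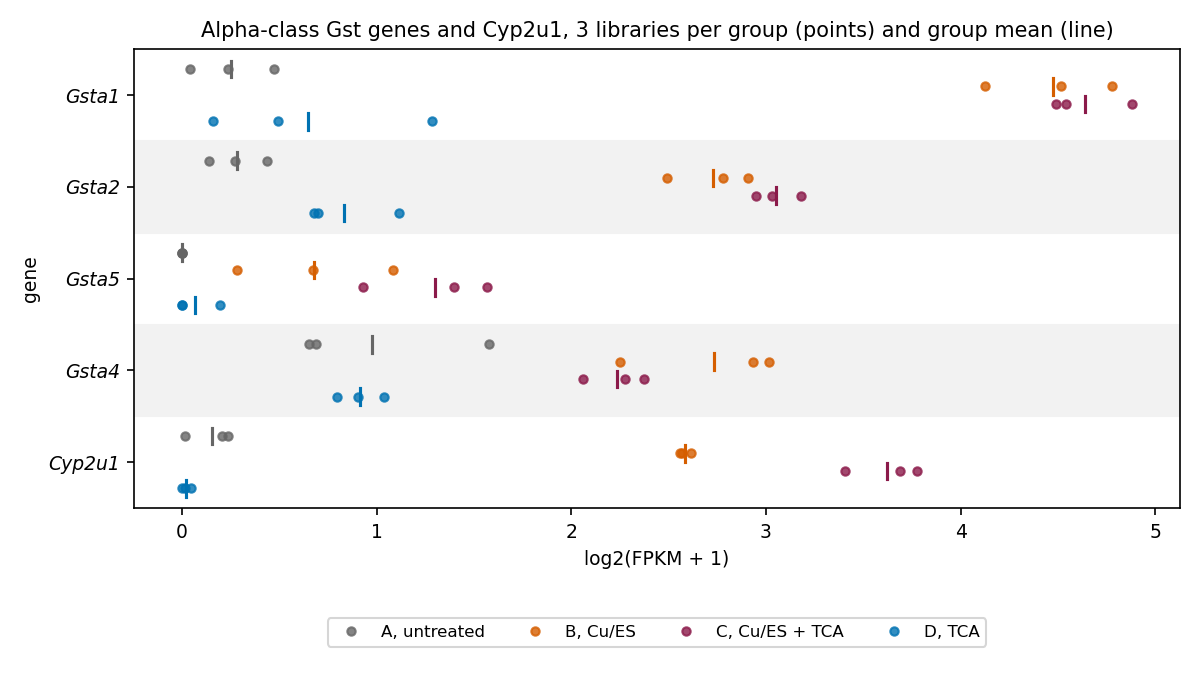
Level as log2(FPKM + 1) of the alpha-class genes Gsta1, Gsta2, Gsta5 and Gsta4 and of Cyp2u1 in the 3 libraries (points) of each group, with the group mean as a vertical line. For each gene the group B and C libraries lie to the right of the group A and D libraries.

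Genes that serve the same reactions were taken from lists drawn up with earlier results of these data known. Of 16 tested partners of P450s and enzymes of haem supply, 8 were called lower and 3 higher in group C vs. D (median -0.81). Over all genes, 53.3% were called lower and 11.2% higher, with a median of -1.13, and the lists are to be read beside those shares. After median-ratio scaling, where 25% of all genes were called lower and 27.8% higher, the counts for this list were 3 lower and 6 higher. Levels are given as the mean ± SD (n = 3). The cytochrome P450 reductase Por averaged 69.8 ± 2.37 FPKM in group D and 87.03 ± 2.16 in group C. Hmox1, which breaks haem down, went from 29.1 ± 5.22 to 1603 ± 142 FPKM, and Alas1, the first enzyme of haem synthesis, from 20.8 ± 0.495 to 45.9 ± 1.46. Other genes of the list fell. Among the 8 called lower were Cyb5r3, from 137 ± 4.25 to 25.4 ± 1.79 FPKM, and 2 genes of haem supply. These were Cpox, from 21.7 ± 2.58 to 3.31 ± 0.635 FPKM, and Fech, from 16.1 ± 2.11 to 5.38 ± 0.687. Among 16 genes of cofactor supply for conjugation, 9 were called lower and 2 higher (median -1.2), or 4 and 6 after median-ratio scaling. The 2 called higher without that scaling were Gclm, from 22.8 ± 1.29 to 416 ± 21.6 FPKM, and Gclc, from 12.9 ± 1.52 to 35.3 ± 1.87, the subunits of the enzyme that limits glutathione synthesis. Ugdh, which makes the glucuronic acid donor, went from 51.9 ± 3.12 to 20.8 ± 1.49 FPKM, and Papss1, which makes the sulfate donor, from 23.3 ± 0.847 to 2.92 ± 0.396.

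Of 17 other phase I enzymes tested, 12 were called lower and 1 higher (Akr1b3; median -1.42), and of 4 other phase II transferases all 4 were called lower (median -2.14). After median-ratio scaling these counts were 5 lower and 4 higher, and 2 lower and 0 higher. For export transporters the counts were 2 lower and 0 higher of 6 (median -0.65), where limma-voom also called 0 higher and 1 was higher at an unadjusted p under 0.05, and after median-ratio scaling 0 lower and 2 higher. Among 17 sensors and regulators, 8 were called lower and 3 higher (median -0.74), or 0 and 6 after median-ratio scaling. The aryl hydrocarbon receptor Ahr went from 7.29 ± 0.671 to 1.69 ± 0.0284 FPKM and its partner Arnt from 31.5 ± 0.622 to 5.85 ± 0.952, whereas Mafk, a partner of NRF2-type factors, went from 7.23 ± 0.392 to 171 ± 5.08. The nuclear receptors that govern liver P450s, Nr1i2, Nr1i3 and Ppara, had means of at most 0.0965 FPKM in every group. In group C vs. B limma called 0 of the 76 genes tested in these lists (45 at an unadjusted p under 0.05), and limma-voom called 2 (Aox1 and Ephx1). In group D vs. A both called 0, with 36 at an unadjusted p under 0.05.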

How the data were processed

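Polyadenylated RNA of AML12 cells in 12 libraries (groups A to D, 3 each) was sequenced on an Illumina NovaSeq. The submitters' processing notes name fastp, HISAT2, HTSeq and build GRCm39, and their settings are not given in the sources used here. The authors deposited FPKM values, 1 column per library, for 24824 genes by symbol. All value columns were mapped to a sample. Members and gene lists were chosen with earlier results of these data known, and groups were taken from the sample titles.

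FPKM was tested as log2(FPKM + 1) with limma 3.58.1 in R 4.3.3 (two-sided, mean-variance trend, 8 residual degrees of freedom, 1 fit over all 12 libraries, Benjamini-Hochberg over 10615 genes with a mean of at least 1 FPKM). Exact permutation of 3 against 3 libraries cannot go below 0.1, so single-gene permutation tests were not used. On simulated data for group C vs. D, 96% of 200 genes changed by a log2 fold of 2 were called with 0 false calls. Only these 200 of the 10615 genes were changed, so calling under the median shift of group C vs. D was not tested. Whole reads were recovered for 22212 of 22212 genes above 0 in 2 or more libraries (within 0.02 reads) and fitted with limma-voom as an alternative. The other alternatives were another pseudocount, other filters, TPM, median-ratio and quantile scaling, no trend, only the groups compared, a replicate block and leaving out each library. Replicate numbers come from the titles, and same-numbered libraries of groups A and B had correlated deviations over 0.1 in all 3 pairs (r = 0.173, 0.174 and 0.142). In every other pair of groups at least 1 same-numbered pair was under 0.1, over a range of -0.171 to 0.579. Named genes were, per family, the 3 highest in group A, every member past both thresholds in group C vs. B, D vs. A or the interaction, the 5 largest changes each way and every rise with Cu/ES, those beside the limit, and family genes that reached 0.5 FPKM outside group A. Figures were drawn with matplotlib 3.10.9 in Python 3.11.15.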

Additional observations from a re-analysis of the deposited data

Results flagged for a closer look

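For the members named below, the log2 effect of TCA with Cu/ES (group C vs. B) and that without (group D vs. A) differed at an adjusted p under 0.05 by limma's interaction term. The term contains the group A level, which chose the members, so the values are a description and nothing is drawn from how many members are named. They are the effect with Cu/ES minus the effect without. Positive differences were seen for Cyp2s1 (1.74), Gsto2 (1.42), Gstm4 (0.96), Cyp4f17 (0.54) and Cyp4v3 (0.45). Cyp2s1 reached the filter only through group A, and Cyp4f17 and Cyp4v3 were under 1 FPKM in every library of groups B and C. Negative differences were seen for Gstm1 (-0.92), Gstp1 (-0.86), Gstm7 (-0.76), Mgst3 (-0.74), Cyp4f16 (-0.69), Mgst2 (-0.57), Gstm5 (-0.46) and Gsto1 (-0.44). No cause of these differences was tested.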

How the results depend on the processing

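Of 2458 recomputed values for single genes, 2374 kept their side of the threshold, 47 passed it newly and 27 no longer passed. Another 10 changed sign where a setting gave a call or where both settings passed the adjusted p. Other changes of sign, of values that gave no call, were counted among the 2374. Those 10 sign changes came with the scaling between libraries. After median-ratio scaling, group B vs. A gave 0.16 for Cyp4f16, 0.16 for Gstm1, 0.83 for Gstm2, 0.79 for Gstp1, 0.043 for Mgst1 and 0.59 for Mgst2, and group C vs. D gave 0.57 for Gstm2 and 0.048 for Mgst2. After quantile normalization, group B vs. A gave 0.47 for Gstm4 and 0.35 for Mgst2. In the counts that follow, one with no share of all genes beside it is a description, from which nothing is read. Members called lower in group C vs. D were 13 (53.3% of all genes), with 8 after median-ratio (25%) and 8 after quantile scaling. Those called higher were 2 (11.2%), but 4 after quantile scaling. Under the stricter filter of 5 FPKM, which removes the low genes that rose, 0 of 11 members were called higher. In group B vs. A, 7 were lower under the stricter filter (48.2% of all genes) and 7 after median-ratio scaling (24.5%), and 0, 3 and 2 were higher under the stricter filter (11.3%), median-ratio (26.9%) and quantile scaling (20.7%). In group C vs. B the 1 higher call became 3 with a pseudocount of 0.1, 3 with limma-voom, 2 with limma-voom unfiltered, and 0 under the stricter filter, under quantile scaling and, of the libraries left out, without replicate 3 of group C (range 0 to 1). In group D vs. A the 1 lower call became 0 under the stricter filter and both scalings. The interaction gave 5 with a pseudocount of 0.1, 5 with limma-voom with or without the filter, 4 with TPM and with median-ratio scaling, 0 under the stricter filter, and 2 to 4 with 1 library left out, the highest without replicate 2 of group B or C. With the replicate block in the paired fit, group C vs. D again gave 13 lower and 2 higher, and no count of calls moved. Apart from the stricter filter's construction, the cause of these shifts was not tested. Reads per library limit the lowest genes, such as Gstt3 and Mgst3 in group C.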
